A study of Mus musculus with 8 samples.

Results

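Every ribosome in the cytosol is built from ribosomal RNA and a fixed set of ribosomal proteins, and the genes of those proteins were followed here across whole kidneys of wild-type (WT) and Tsc1/Foxi1-dKO mice. Members were the protein-coding genes named Rpl or Rps with a number, Rplp with a number, or Rpsa, without the Rps6k kinases. This gave 89 of the 26893 genes listed: 34 of the small (40S) subunit, 50 of the large (60S) subunit, 3 of the ribosomal stalk, and 2 that matched by name alone, Rps19bp1 and Rpl7l1. By name, 6 of the 89 were copies of another member, such as Rps27rt and Rpl10-ps3. The study compared poly(A) RNA from kidneys of 45-day-old mice, in 4 WT libraries of the C57BL/6 strain and 4 dKO libraries from mice with floxed Tsc1, Aqp2-Cre and a Foxi1 knockout. The study describes its Aqp2-Cre loss of Tsc1 as specific to principal cells, a cell type of the collecting duct. The Foxi1 knockout covers the whole animal and takes away a transcription factor on which intercalated cells depend. WT mice carried none of these alleles, so the dKO comparison cannot tell the effect of 1 allele from that of another. The labels give no strain background for the dKO mice. Any strain difference between the groups cannot be told apart from the alleles. In whole kidney, fewer cells of a type and less RNA per cell cannot be told apart.

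The ribosome reads messenger RNA on its small subunit and joins amino acids on its large subunit, and its stalk recruits the elongation factors. Loss of Tsc1 is known to activate mTORC1, the kinase complex that drives cell growth. A main output of mTORC1 is translation of mRNAs that begin with a 5′ terminal oligopyrimidine (TOP) tract, a C followed by a run of C and T, and ribosomal protein mRNAs are the classic TOP mRNAs. This control acts on how often an mRNA is translated, whereas the libraries measure how much mRNA is present. Ribosomal protein genes have also left many processed pseudogenes in the mouse genome. These are intron-free copies of the mRNA, often nearly identical to their parent.

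The TOP tract is shown because it is the feature that links these genes to Tsc1. A C at the annotated RefSeq start followed by at least 4 C or T was looked for on the transcribed strand. It was found in 14 of the 64 members with an entry, or 21.9%, and in 3.01% of all 27025 genes with an entry. A match says only that these letters are at the annotated start. The lack of a match does not show that a gene has no TOP tract. A start annotated a few bases away would be missed. The windows below run from 8 bases before the start to 22 bases from it (build GRCm38.p6; Rpl35a on the plus strand, the others on the minus strand; sequences from RefSeq), with the pyrimidine run in capitals:
Rps6, chr4:86857346-86857375: agtcgggcCTCTTTTTCgtgacgcctccca
Rps18, chr17:33955644-33955673: cttccgctCTCTCTTCCacaggaggcctac
Rpl15, chr14:18270965-18270994: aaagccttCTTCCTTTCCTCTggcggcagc
Rpl35a, chr16:33056474-33056503: ttgccttcCTCTTTCCgccatcttggcgcc
Rps6 encodes the 40S protein that S6 kinase phosphorylates downstream of mTORC1. Its run was 9 bases long, and that of Rpl15 was 13 bases long.

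Some libraries stood apart before any comparison was made. The library labelled dKO replicate 4 held Foxi1 at 45.9 CPM, against 26.6 to 33.6 CPM in WT and 1.33 to 1.56 CPM in dKO replicates 1 to 3. CPM is the read count scaled to a common library size. dKO replicate 1 had 0 reads of the Y-linked genes Ddx3y, Uty, Kdm5d and Eif2s3y, which had 2189 to 4380 reads in each of the other 7 libraries. Its Xist level was 490 CPM. It also had the highest Aqp2, at 1234 CPM against 339 to 408 CPM in the other dKO libraries. Tsc1 itself overlapped between groups, at 39.6 to 63.6 CPM in WT and at 43.3 to 57.6 CPM in dKO. Total counts per library lay between 14791687 and 24973213. Proximal tubule markers summed to 34026 to 36411 CPM in WT, and to 13920 CPM in dKO replicate 1 against 27348 to 31306 CPM in dKO replicates 2 to 4.

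Ribosomal protein mRNAs as a group differed little between dKO and WT kidneys. Of 87 members with enough reads to be tested, 1 rose and 0 fell in dKO. The test was the quasi-likelihood test of edgeR, with p-values adjusted by Benjamini and Hochberg over all genes. Of all 15912 genes tested, 1.16% were called higher and 1.12% lower, so the share of members called higher, 1.15%, lay at the background. At an unadjusted p under 0.05, 2 members were higher and 4 were lower, together 6.9% of the tested members, while 16.8% of all tested genes reached it. DESeq2 called 1 member higher (background 2.58%) and 4 lower (Rpl21, Rpl29, Rpl34 and Rps7; background 2.35%). The limma-voom test called 2 higher (Rpl3 and Rpl30; background 0.987%) and 0 lower (background 1.16%). The member that rose was Rpl3, a protein near the peptidyl transferase centre of the 60S subunit, at 0.51 on the log2 scale of dKO over WT (SE 0.10, adjusted p = 0.0239). The median log2 fold change over the tested members was -0.06, beside 0.01 over all genes tested. Fold changes were small for most: 74 of the 87 lay within 0.25 of 0 on the log2 scale, and the median SE was 0.11. Without dKO replicate 1, 1 member was called higher and 2 lower (Rpl29 and Rps7; background 1.88% and 2.02%). Without dKO replicate 4 the counts were 1 and 1 (Rpl34; background 0.969% and 1.14%), and without both they were 1 and 2 (Rpl29 and Rpl34; background 1.42% and 1.76%).

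The levels of the members, per length of gene, spread widely and kept nearly the same order in both groups. Rplp1, an acidic protein of the stalk, had the highest level, at 698 ± 123 FPKM (SD, n = 4) in WT and 686 ± 69.7 FPKM in dKO. Rplp0, the stalk protein that anchors the others to the 60S subunit, followed at 335 ± 29.4 FPKM in WT and 344 ± 24.5 FPKM in dKO. The 60S protein Rpl36 (330 ± 47.7 FPKM in WT) and the 40S proteins Rps15 (307 ± 42.6 FPKM) and Rps3a1 (304 ± 37.2 FPKM) came next, and from Rplp0 to Rps3a1 the neighbours in this order differed by less than their SD. The order depends on the length used: per kilobase of the GENCODE transcript, Rplp1 was again highest in WT, at 698 CPM, and Rpl10 (455 CPM), Rps2 (448 CPM), Rpl13 (438 CPM) and Rpl41 (423 CPM) lay above Rplp0 (410 CPM). The median tested member was at 73.0 FPKM in WT and 67.6 FPKM in dKO. The 5 lowest in WT were Rpl27-ps3 (2.74 FPKM), Rpl3l (1.59 FPKM), Rps10 (1.34 FPKM), Rpl10-ps3 (1.07 FPKM) and Rpl24 (0.857 FPKM). Spearman's rho between the WT and dKO means was 0.986 over the 87 tested members. It is a description across genes that share libraries and lengths. The 2 members that were not tested, Rpl36al and Rpl36a-ps1, had at most 0.794 CPM in any library.

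**Figure D1:**
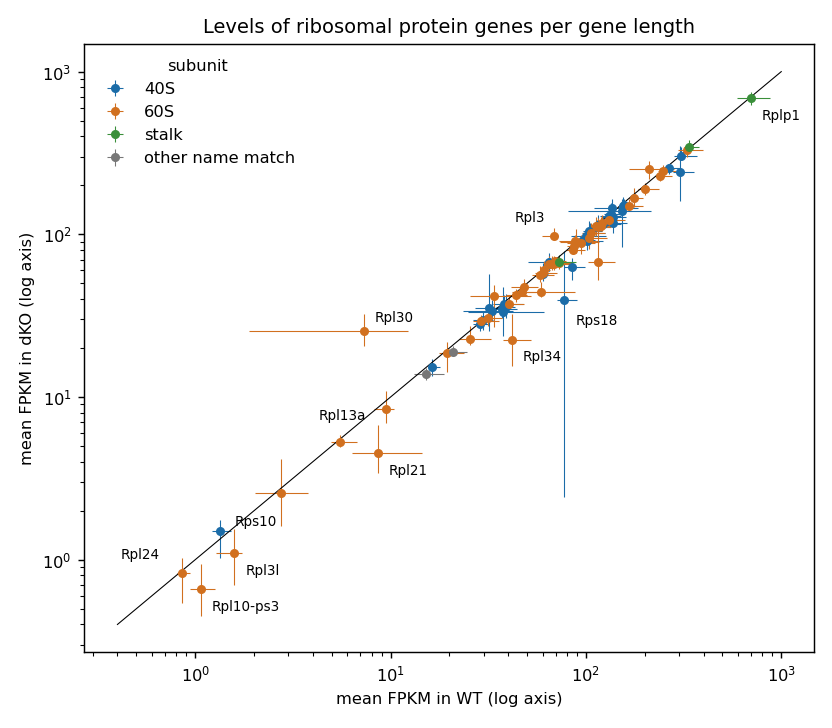
Mean FPKM of the 87 tested members in WT (x axis) and dKO (y axis), both on log axes, coloured by subunit, with bars from the lowest to the highest library and a line of equal levels. Most members lie on the line, Rpl30 and Rpl3 lie above it, Rpl34 and Rpl21 lie below it, and the bar of Rps18 spans from its lowest to its highest dKO library.

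Rps6, Rplp0, Rpl5, Rpl11 and Rack1, which were chosen by name, were close in both groups. Rps6 was at 234, 285, 231 and 232 CPM in WT replicates 1 to 4 and at 244, 216, 270 and 225 CPM in dKO replicates 1 to 4. The groups overlapped, and the fitted log2 change was -0.04 (SE 0.10, adjusted p = 0.904). Rplp0, which is often used as a reference gene, was at 535, 628, 527 and 539 CPM in WT and at 549, 558, 633 and 554 CPM in dKO, and its highest WT library lay just under its highest dKO library (log2 fold change 0.04, SE 0.10, adjusted p = 0.884). Rpl5 and Rpl11, which bind 5S ribosomal RNA and, when free of the ribosome, the p53 inhibitor Mdm2, gave log2 fold changes of -0.03 (SE 0.09, adjusted p = 0.921) and 0.00 (SE 0.08, adjusted p = 0.996). Their ranges overlapped too: Rpl5 spanned 250 to 295 CPM in WT and 238 to 288 CPM in dKO. Rps7, which can bind Mdm2 too, lay wholly below WT in dKO (log2 fold change -0.42, SE 0.12, adjusted p = 0.104). It is described with its copies below. Rack1, the 40S scaffold protein outside the name rule, averaged 314 ± 31.7 CPM over the WT libraries and 302 ± 32.0 CPM over the dKO libraries. Among 3 tested ribosomal proteins outside that rule, Rack1 included, 0 passed in either direction (1 at an unadjusted p under 0.05). Their log2 fold changes ran from -0.63 to -0.03, with a median of -0.06. Leaving out dKO replicate 1, or dKO replicates 1 and 4 together, gave 1 call lower, of a gene other than Rack1 (background 2.02% and 1.76%). Leaving out dKO replicate 4 alone gave 0 calls. By subunit, the median log2 fold change was -0.04 over 34 tested 40S genes, -0.06 over 48 tested 60S genes and -0.02 over the 3 stalk genes.

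More of the variation lay between libraries than between groups. The share of counted reads that went to members was 1.23%, 1.54%, 1.26% and 1.26% across WT replicates 1 to 4. Across the dKO libraries it was 1.41%, 1.23%, 1.45% and 1.25%. WT replicate 2 was the highest WT library for 80 of the 87 tested members, and dKO replicates 1 and 3 lay above the other 2 dKO libraries. Relative to the mean of the WT libraries, the median member deviated by -0.10, 0.23, -0.07 and -0.08 on the log2 scale across the WT libraries and by -0.02, -0.13, 0.10 and -0.15 across the dKO libraries. Short genes that are not members showed the same pattern: over 293 tested protein-coding genes under 1000 bases, the medians were -0.11, 0.22, -0.03 and -0.06 in WT and -0.02, -0.11, 0.05 and -0.11 in dKO. The 77 mitochondrial ribosomal proteins, 82 respiratory chain subunits and 38 tested proteasome subunits were also highest in WT replicate 2 among the WT libraries, as the plot of median deviation by library shows. The part of gene length in the member values was not tested. Without WT replicate 2 the median log2 fold change over members was 0.03 rather than -0.06, so its sign rested on that library.

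**Figure D2:**
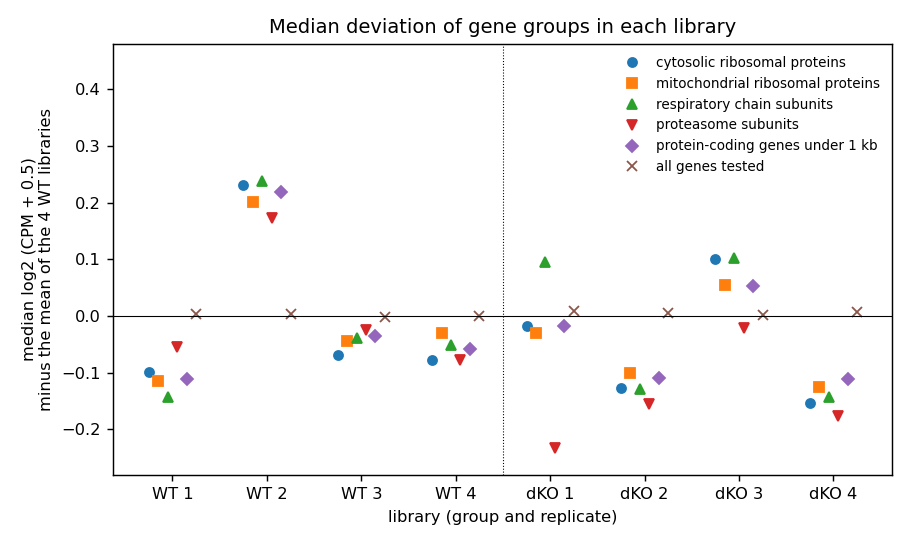
Median deviation from the WT mean, on the log2 scale of CPM plus 0.5, of 6 gene groups (symbols) in each of the 8 libraries (x axis). The cytosolic ribosomal proteins and the short protein-coding genes move together, with 0.23 and 0.22 for WT replicate 2 and -0.15 and -0.11 for dKO replicate 4, while the median over all genes stays near 0.

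Many members have near-identical copies elsewhere in the genome, so the reads of gene and copies were set side by side. Genes with a transcript at least 90% identical to at least 60% of a member's coding sequence were searched for in the GENCODE annotation. There were 481 such copies, of 77 members, and 20 members had a copy with no difference in the aligned part. Over all copies outside the member set, reads were 0.106% to 0.137% of a library, against 1.23% to 1.54% for the members. In WT, copies took over 10% of the reads of 27 members and over 50% of those of 7. The tract around a difference is printed for 4 pairs, 60 bases of coding sequence each, with differing bases in capitals, to show how little separates a gene from its copy. Rpl3 (chromosome 15, 80077791 to 80091868) and the processed pseudogene Rpl3-ps1 (chromosome X, 13202571 to 13203780) differed at 2 of 1209 aligned bases:
Rpl3: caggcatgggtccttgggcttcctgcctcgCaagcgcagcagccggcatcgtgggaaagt
Rpl3-ps1: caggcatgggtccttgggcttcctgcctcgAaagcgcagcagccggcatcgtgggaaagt
Rpl30 (chromosome 15, 34440505 to 34443640) and the processed pseudogene Gm12191 (chromosome 11, 49678710 to 49679057) differed at 1 of 345 bases:
Rpl30: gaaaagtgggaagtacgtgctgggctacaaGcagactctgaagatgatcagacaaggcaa
Gm12191: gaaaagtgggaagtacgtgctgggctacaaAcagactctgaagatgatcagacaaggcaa
Rpl34 (chromosome 3, 130726831 to 130730398) and the processed pseudogene Rpl34-ps1 (chromosome 6, 71124610 to 71124963) differed at 2 of 351 bases:
Rpl34: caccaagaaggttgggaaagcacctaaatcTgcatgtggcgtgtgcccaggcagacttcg
Rpl34-ps1: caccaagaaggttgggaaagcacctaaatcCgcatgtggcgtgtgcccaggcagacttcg
Rps18 (chromosome 17, 33951999 to 33956001) and Gm11361 (chromosome 13, 28257528 to 28258134, annotated as protein-coding) differed at 3 of 456 bases:
Rps18: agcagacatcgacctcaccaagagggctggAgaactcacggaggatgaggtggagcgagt
Gm11361: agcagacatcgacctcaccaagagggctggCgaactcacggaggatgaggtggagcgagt
A read that covers none of the bases at which a gene and its copy differ has the same letters in both places. The part of strain sequence in how reads divided between gene and copy was not tested.

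Rpl3 was at 229, 224, 229 and 190 CPM in WT replicates 1 to 4 and at 299, 297, 348 and 298 CPM in dKO replicates 1 to 4, with no overlap. Its copy Rpl3-ps1 went the other way, at 67.7, 124, 66.1 and 116 CPM in WT and at 30.8, 26.1, 32.5 and 24.8 CPM in dKO (log2 fold change -1.71, SE 0.22, adjusted p = 0.006). The gene and its copy thus moved in opposite directions. Within WT, replicate 4 was lowest in Rpl3, and replicates 2 and 4 were highest in the copy. Added to its 5 copies, Rpl3 was at 300, 353, 298 and 309 CPM in WT and at 331, 324, 382 and 324 CPM in dKO. The sums overlapped, and Rpl3 was no longer called (log2 fold change 0.11, SE 0.10, adjusted p = 0.608). Copies held 30.7% of the summed reads in WT and 8.76% in dKO. The call of Rpl3 alone was also lost when any 1 WT library or dKO replicate 3 was left out (adjusted p from 0.0527 to 0.0817), with fewer libraries in each fit and log2 fold changes from 0.45 to 0.53. Without dKO replicates 1 and 4 together it passed (adjusted p = 0.0173).

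The widest fold among members was that of Rpl30, which binds its own transcript in yeast and sits in the 60S subunit. It was at 34.9, 11.02, 36.9 and 5.73 CPM in WT and at 98.3, 75.4, 73.4 and 62.8 CPM in dKO, with no overlap but a wide spread inside WT. The log2 fold change was 1.81 (SE 0.57, adjusted p = 0.174). Its copy Gm12191 was at 43.4, 89.2, 40.01 and 69.3 CPM in WT and at 3.41, 9.47, 14.5 and 10.6 CPM in dKO (log2 fold change -2.67, SE 0.45, adjusted p = 0.0273). WT replicates 2 and 4, low in Rpl30, were high in the copy. With its 10 copies added, Rpl30 was at 85.1, 103, 84.7 and 77.3 CPM in WT and at 104, 91.2, 101 and 83.2 CPM in dKO (log2 fold change 0.12, SE 0.11, adjusted p = 0.64). The SD of log2 levels within groups was 0.92 for the gene alone and 0.16 for the sum.

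Rpl34 and Rps7 were the members whose dKO range lay wholly below WT. Rpl34, a 60S protein, was at 99.7, 139, 102 and 103.5 CPM in WT and at 54.0, 41.1, 57.5 and 86.4 CPM in dKO (log2 fold change -0.89, SE 0.21, adjusted p = 0.0682). Rpl34-ps1 was at 8.41, 4.97, 5.46 and 11.8 CPM in WT and at 49.9, 50.4, 63.3 and 3.58 CPM in dKO. The copy was high in the same 3 dKO libraries in which Rpl34 was lowest, and below its WT range in the library labelled dKO replicate 4. Without that library Rpl34 passed, at -1.12 on the log2 scale (adjusted p = 0.00649). With copies added the values were 111, 147, 111 and 119 CPM in WT and 106, 93.1, 122 and 93.0 CPM in dKO, which overlapped (log2 fold change -0.24, SE 0.12, adjusted p = 0.365). Rps7, a 40S protein that, like Rpl5 and Rpl11, can bind Mdm2, was at 156, 199, 160 and 167 CPM in WT and at 145, 122, 138 and 106 CPM in dKO (log2 fold change -0.42, SE 0.12, adjusted p = 0.104). Without dKO replicate 1 it passed (adjusted p = 0.0371). Its copy Gm6472, a transcribed pseudogene on chromosome X that differed at 3 of 582 bases, rose from 29.4 to 35.7 CPM in WT to 48.3 to 79.9 CPM in dKO (log2 fold change 1.03, SE 0.14, adjusted p = 0.00492). The sum of Rps7 and its 4 copies gave -0.08 on the log2 scale (SE 0.10, adjusted p = 0.772). Of all tested genes, 6.06% had dKO libraries wholly above WT and 6.06% wholly below. Among members it was 2.3% each way: Rpl3 and Rpl30 above, Rps7 and Rpl34 below.

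Rps3a1 and Rps18 differed among the dKO libraries rather than between groups. Rps3a1, a 40S protein, was at 273, 350, 287 and 280 CPM in WT and at 177.5, 157, 344 and 267 CPM in dKO. It was low in dKO replicates 1 and 2, and its log2 fold change, -0.33 (SE 0.23, adjusted p = 0.522), did not pass. Its copies Rps3a2 (chromosome 14) and Rps3a3 (chromosome 13), which differed from it at 4 of 792 and 8 of 791 bases, were at 59.3 and 45.8 CPM in dKO replicate 1 and at 55.7 and 37.1 CPM in dKO replicate 2. In the other 6 libraries they were at 0.622 to 2.62 CPM. The sum of Rps3a1 and its 7 copies was 284, 251, 349 and 272 CPM in dKO and 279 to 356 CPM in WT, and the groups overlapped (log2 fold change -0.07, SE 0.12, adjusted p = 0.844). Rps18, a protein of the 40S head, was at 184, 225, 187 and 178 CPM in WT and at 181, 12.5, 196 and 6.11 CPM in dKO. The 2 low libraries, dKO replicates 2 and 4, held 643 and 817 reads of Gm11361, against 36 to 83 reads in the other 6 libraries. With 5 copies added, Rps18 was at 184, 56.3, 202 and 54.0 CPM in dKO and at 182 to 230 CPM in WT, so both libraries stayed low. The within-group SD of Rps18 was 1.80 on the log2 scale alone and 0.74 summed, the highest of all members in both cases.

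**Figure D3:**
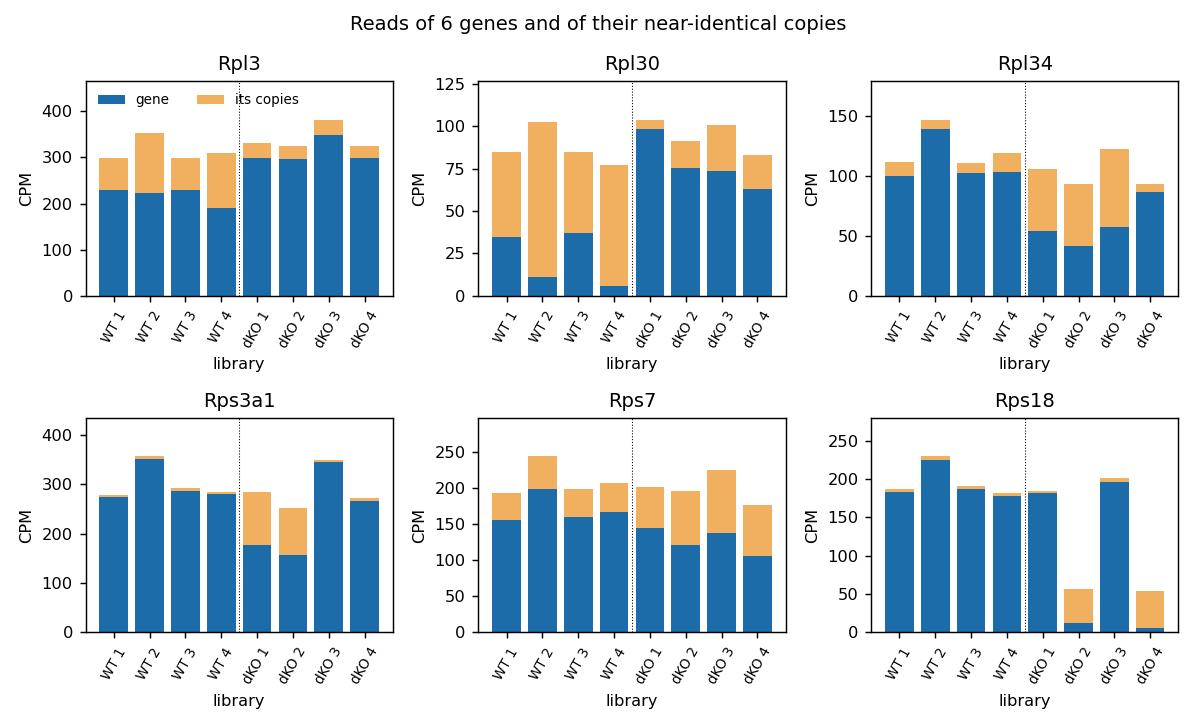
Stacked bars of CPM in each of the 8 libraries (x axis) for 6 members (blue) and the sum of their near-identical copies (orange), with the y axis of each panel from 0. The share in copies changes between libraries while the full bars of the groups overlap for Rpl3, Rpl30, Rpl34, Rps3a1 and Rps7, and the full bar of Rps18 is low in dKO replicates 2 and 4, at 56.3 and 54.0 CPM.

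Rpl21 with its copies passed the test, and Rpl29 with its copies did not. Rpl21, a 60S protein with 33 copies, was at 21.6, 49.1, 25.4 and 21.6 CPM in WT and at 13.7, 11.7, 13.2 and 23.1 CPM in dKO. WT replicate 2 was far above the other WT libraries, and the log2 fold change of Rpl21, -0.93 (SE 0.32, adjusted p = 0.189), did not pass. The copy Rpl21-ps15 (chromosome X, 151215167 to 151215649) fell, from 29.1 to 35.4 CPM in WT to 21.5 to 27.1 CPM in dKO (log2 fold change -0.45, SE 0.10, adjusted p = 0.0426). The sum was 73.6, 103, 75.8 and 74.8 CPM in WT and 50.5, 44.9, 56.2 and 58.1 CPM in dKO, without overlap, and it passed the test (log2 fold change -0.64, SE 0.13, adjusted p = 0.0297). The sum stayed past the threshold without dKO replicate 1, without dKO replicate 4 and without both, at adjusted p from 0.0279 to 0.0422. No WT library was left out of the fit of the sums. How far the call rests on WT replicate 2, the highest sum, was therefore not tested. Rpl29, a 60S protein that is dispensable for life in mice, was at 116, 158, 125.5 and 121 CPM in WT and at 119, 60.8, 65.4 and 59.3 CPM in dKO. It was at the WT level in dKO replicate 1 alone, and without that library it passed, at -1.07 on the log2 scale (adjusted p = 0.000264). With its 23 copies added and all libraries kept, the groups overlapped, the log2 fold change was -0.56 (SE 0.15, adjusted p = 0.0998), and without dKO replicate 1 it was -0.72 (adjusted p = 0.00347). dKO replicate 1 is the library without Y-linked reads, and the part of sex or of other differences of that library was not tested.

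With copies added there were 83 genes, all tested, of which 0 rose and 1 (Rpl21) fell by edgeR, with 1.14% and 1.1% of the 15762 genes then tested called higher and lower. The median log2 fold change stayed at -0.06. The within-group SD became smaller for 48 of the 77 members that had copies, and it was over 0.5 on the log2 scale for 3 members alone (Rps18, Rpl30 and Rps27rt) and for 1 summed (Rps18). Rps27 and Rps27rt are an example inside the member set, since their coding sequences had no difference over 252 bases. Rps27 was at 26.1, 31.7, 63.8 and 36.4 CPM in WT and at 32.8, 24.7, 33.3 and 49.8 CPM in dKO. Rps27rt was at 66.1, 79.9, 30.3 and 53.1 CPM in WT and at 61.9, 56.0, 61.3 and 31.3 CPM in dKO, low in the libraries in which Rps27 was high. The sum of Rps27 and its 2 copies, Rps27rt among them, lay between 80.8 and 112 CPM in all 8 libraries. The 52 members with under 10% of their reads in copies in each group gave 0 calls in either direction by edgeR, 0 at an unadjusted p under 0.05, and log2 fold changes from -0.53 to 0.27.

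**Figure D4:**
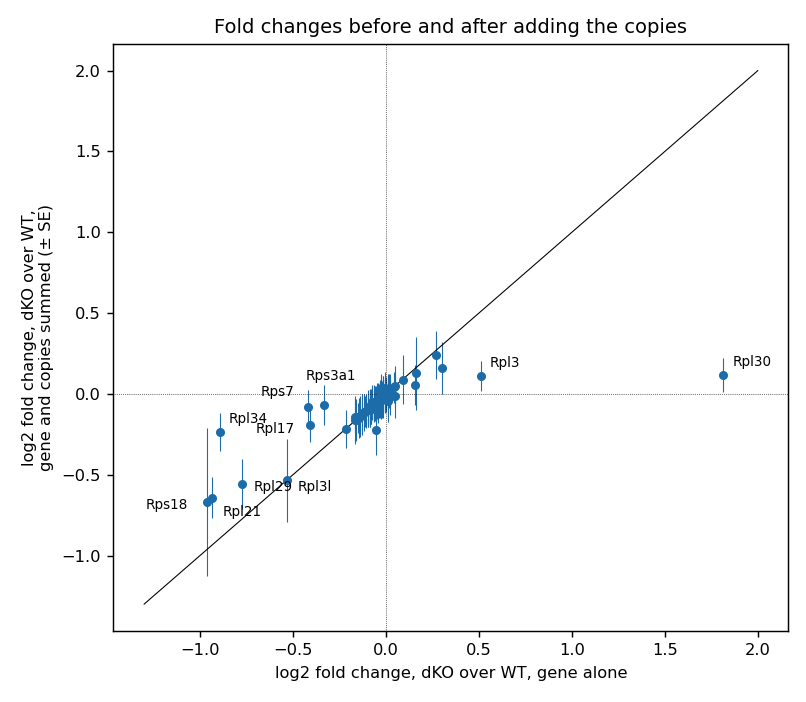
Log2 fold change (dKO over WT) of each tested gene alone (x axis) and of the gene with its copies summed (y axis, bars of 1 SE), with a line of equal values and dotted lines at 0. Rpl30 moves from 1.81 to 0.12, Rpl3 from 0.51 to 0.11 and Rpl34 from -0.89 to -0.24, and Rpl21 from -0.93 to -0.64.

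Several members were counted far below the rest although the ribosome needs their proteins. Rps10, a 40S protein, was at 2.90, 3.53, 2.83 and 3.18 CPM in WT and at 3.45, 4.10, 2.38 and 4.02 CPM in dKO. Its copies took 94.4% of the summed reads in WT, most of them in Rps10-ps2 (chromosome 16, 20822145 to 20822640), which held 597 to 1435 reads a library. Rpl24, a 60S protein, was at 0.564 to 1.06 CPM over the 8 libraries. Its 3 copies added only 2.12 to 3.32 CPM, and Rpl13a, a 60S protein, was at 10.5 to 14.3 CPM with 1 copy at 7 to 16 reads a library. Reads of these members that may lie elsewhere in the genome were not tested. In all, 23 members overlap another gene on either strand, among them Rpl3, Rpl30, Rps10 and Rps18. Rpl24 and Rpl13a are not among them. Genes of small RNAs, such as small nucleolar RNAs, were left out of this count. The sources used here do not give the strand setting of the counting.

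Paralogs of ribosomal proteins, which can replace the main form in some tissues, did not pass the test in either direction. Rpl3l, the form of Rpl3 known from heart and skeletal muscle, was at 2.12, 2.84, 2.76 and 2.72 CPM in WT and at 1.15, 2.54, 1.89 and 1.65 CPM in dKO (log2 fold change -0.53, SE 0.26, adjusted p = 0.33). Its level was 1.59 FPKM in WT, against 68.6 FPKM for Rpl3. Rpl22l1, the paralog of Rpl22, had 9.49 FPKM in WT against 40.3 FPKM for Rpl22, with log2 fold changes of -0.17 (adjusted p = 0.644) and -0.10 (adjusted p = 0.705). Rps27l, a p53-induced paralog of Rps27, had 101 FPKM in WT, against 37.8 FPKM for Rps27 and 153 FPKM for Rps27rt, which has the same coding sequence as Rps27, so the order of Rps27 and Rps27l depends on where those reads are counted. Rpl36al, the paralog of the X-linked Rpl36a, was at 0.334 to 0.794 CPM and was not tested. Rps4l, annotated as a transcribed pseudogene, was at 11.7 to 14.01 CPM in WT and at 13.4 to 16.5 CPM in dKO, with overlapping ranges. Its log2 fold change was 0.26 (SE 0.11, adjusted p = 0.254). The overlap came from dKO replicate 4, at 13.4 CPM, as dKO replicates 1 to 3 were at 15.4 to 16.5 CPM. Rpl7l1, which works in ribosome assembly and not as Rpl7 does, gave -0.14 on the log2 scale (SE 0.09, adjusted p = 0.502), and Rpl7 itself gave 0.01 (SE 0.11, adjusted p = 0.978).

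The X-linked members were close between groups, also in dKO replicate 1, the library with Xist. Rpl10, a 60S protein at the peptidyl transferase centre, was at 373, 400, 341 and 341 CPM in WT and at 304, 335, 396 and 341 CPM in dKO (log2 fold change -0.08, SE 0.10, adjusted p = 0.76). Its value in dKO replicate 1 was the lowest of the 8. Rps4x was at 218, 249, 205 and 203 CPM in WT and at 218, 200, 256 and 199 CPM in dKO (log2 fold change -0.01, SE 0.11, adjusted p = 0.987). Rpl39 (log2 fold change -0.06, SE 0.10, adjusted p = 0.832) and Rpl36a (0.02, SE 0.12, adjusted p = 0.949) overlapped between groups too.

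The rest of the translation machinery was likewise mostly level. Of 17 translation factors and other TOP mRNAs, 0 passed in either direction by edgeR (0 at an unadjusted p under 0.05), with a median log2 fold change of -0.06. Eef1a1, the main elongation factor, gave -0.05 (SE 0.09, adjusted p = 0.833) and Eef2 gave -0.07 (SE 0.10, adjusted p = 0.792). Of 41 ribosome assembly factors, 0 passed (4 at an unadjusted p under 0.05, background 16.8%). Their median was -0.11, with 31 negative values, beside 7687 negative values among all 15912 tested genes. Without WT replicate 2 the median was -0.03. By left-out library, 1 of the 41 was called lower without dKO replicate 1 (background 2.02%) and 0 without dKO replicate 4. It was 1 without both (background 1.76%). Nhp2, a protein of the small nucleolar particles that modify ribosomal RNA, had the lowest value, -0.89 (SE 0.22, adjusted p = 0.0837), with 88.3 ± 14.7 CPM in WT and 47.7 ± 13.8 CPM in dKO, while Nop10, of the same particles, gave 0.04 (SE 0.11, adjusted p = 0.913). Of 12 genes of RNA polymerase I transcription, which makes ribosomal RNA, 1 rose and 0 fell (background 1.16% and 1.12%). It was Polr1b, the second largest subunit of that polymerase, at 16.7 to 20.2 CPM in WT and at 28.2 to 31.1 CPM in dKO, with no overlap (log2 fold change 0.66, SE 0.09, adjusted p = 0.00361). The list also had 1 call higher and 0 lower without dKO replicate 1, without dKO replicate 4 and without both. Of all genes tested in those fits, 1.88%, 0.969% and 1.42% were called higher.

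Genes that act between mTORC1 and the ribosome, and those that respond to faulty ribosome assembly, showed no calls. Of 14 genes of the mTORC1 arm to translation, such as the S6 kinases and the 4E-binding proteins, 0 passed by edgeR (1 at an unadjusted p under 0.05; median -0.07). Eif4g1 gave -0.08 (SE 0.08, adjusted p = 0.696) and Eif4ebp2 gave 0.03 (SE 0.09, adjusted p = 0.918). Of 11 tested p53 response genes, 0 passed (2 at an unadjusted p under 0.05; median -0.01), with Ccng1 at 0.05 (adjusted p = 0.868) and Bax at 0.06 (adjusted p = 0.847). Of 10 genes of RNA decay and ribosome rescue, 0 passed (0 at an unadjusted p under 0.05; median -0.04), with Upf1 at -0.12 (adjusted p = 0.5) and Smg5 at 0.04 (adjusted p = 0.852). For comparison, the median log2 fold change was -0.06 over 77 mitochondrial ribosomal proteins, of which 0 passed (8 at an unadjusted p under 0.05), and -0.02 over 82 respiratory chain subunits, of which 1, Cox6a2, a muscle form of a cytochrome c oxidase subunit, rose (log2 fold change 2.23, SE 0.28, adjusted p = 0.003). It was -0.16 over 38 tested proteasome subunits, of which 0 passed (10 at an unadjusted p under 0.05). The share of all tested genes at that unadjusted p, 16.8%, is the background for each of these counts. For the genes that passed, the background was 1.16% higher and 1.12% lower.

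Intercalated-cell markers summed to 264 to 319 CPM in WT, to 7.65 to 15.04 CPM in dKO replicates 1 to 3 and to 405 CPM in the library labelled dKO replicate 4. Over those same libraries the 89 members summed to 12718 to 15840 CPM in WT, to 12220 to 14607 CPM in dKO replicates 1 to 3 and to 12204 CPM in dKO replicate 4. Principal cell markers summed to 476 to 587 CPM in WT and to 609 to 1596 CPM in dKO. Thick ascending limb markers summed to 3560 to 3998 CPM in WT and to 4228 to 5071 CPM in dKO. For distal convoluted tubule markers the sums were 1034 to 1437 CPM in WT and 1548 to 2594 CPM in dKO. Podocyte markers were highest in dKO replicate 1, at 651 CPM against 326 to 427 CPM in the other 7 libraries, and immune markers lay between 93.1 and 113 CPM in all 8. Urothelial markers summed to 49.2 CPM in dKO replicate 1 and to 16.0 to 23.1 CPM elsewhere. Blood markers summed to 289 to 561 CPM in WT and to 209 to 259 CPM in dKO. The part of these cell types in the member values was not tested.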

How the data were processed

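The 8 libraries, 4 WT and 4 dKO, were made from poly(A) RNA of kidneys. The submitters' processing notes name HISAT2 2.0.4 for alignment and HTSeq 0.9.1 for counting. Build, annotation, strand and the treatment of reads with several matches are not given in the sources used here. The deposited table holds counts per gene, FPKM that the authors computed from the counts with their own gene lengths and scaled library sizes, and 8 further columns of scaled values, 1 per library, not used. Its group means, fold changes and p-values by the authors were not used. Of the 89 members, 85 have the GRCm38 coordinates of GENCODE.

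Counts were tested in R 4.3.3 with edgeR 4.0.16: filterByExpr (minimum count 10, minimum total 15), TMM scaling, robust quasi-likelihood test, two-sided, all 8 libraries, no covariate, Benjamini-Hochberg adjustment over all genes, threshold 0.05. The SE is the size of the log2 fold change divided by the square root of F. Alternatives were other scalings, no filter, DESeq2 1.42.0, limma 3.58.1 (voom, or log2 of FPKM plus 1 or 0.1), left-out libraries and added copies. The test was tested on simulated data. Copies were found with BLAST+ 2.17.0 among GENCODE transcripts, with at least 50% of the copy aligned, and their counts were added to the parent. That search was chosen after seeing the data. A floor of 3 reads was 0.121 to 0.207 CPM. The labels do not say that samples are separate animals, and p-values then cover only the spread among the samples, which may be technical. The floor covers counting error only, whereas SD and SE include the spread among libraries.

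The members, gene lists and tests were chosen with earlier results of these data known. Genes named by rule were members past the threshold, the 5 highest and 5 lowest by FPKM, Rps6, Rplp0, Rpl5, Rpl11, Rack1, paralogs with their parents, X-linked members and, from each list, up to 4 called or else 2 by FPKM. Rpl34, Rps18, Rpl30, Rps7, Rpl29, Rpl21, Rps27rt, Rpl13a, Rpl17, Rpl41, Rps2, Rpl13 and all copies were named after their values were seen. The Tsc1-KO samples were not used here.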

Additional observations from a re-analysis of the deposited data

Results flagged for a closer look

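In 74 groups of 4 libraries, 1 gene's or 1 median's values each, 20 had a library far from the other 3. By chance about 1 in 20 groups would have one if the groups were separate and not picked by their values. These groups share libraries, and some genes were named after their values were seen. The count of 20 therefore cannot be set against that rate. WT replicate 2 was such a library for the median deviation of all members, at 0.23 on the log2 scale against -0.10 to -0.07 in the other WT libraries. It was also the high library in WT for Rplp0 (628 CPM), Rps15 (233 CPM), Rps6 (285 CPM), Rpl5 (295 CPM), Rack1 (361.5 CPM), Rpl22 (141 CPM), Rpl36a (59.2 CPM), Rpl7 (344 CPM), Rpl34 (139 CPM), Rpl21 (49.1 CPM) and Rpl13a (14.3 CPM). These genes share the library, so they are not separate observations. Among dKO libraries, replicate 3 was high for Rpl3 (348 CPM), Rplp0 (633 CPM), Rack1 (350.0 CPM), Rpl7l1 (71.8 CPM) and Rpl17 (39.5 CPM). Rpl29 in dKO replicate 1 (119 CPM, others 59.3 to 65.4 CPM) stood above the other 3 dKO libraries. The low libraries were WT replicate 4 for Rpl3 (190 CPM) and WT replicate 1 for Rpl3l (2.12 CPM).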

How the results depend on the processing

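The median log2 fold change over members lay between -0.062 and -0.044 under other scalings, filters and tools, and from -0.102 to 0.027 with 1 library left out. The count of members higher in dKO was 1 under every scaling, without the filter, with non-robust estimation, with protein-coding genes alone, with DESeq2 and with FPKM. It was 2 with limma-voom (Rpl30 added), 0 to 1 with 1 library left out, and 0 with copies added by name or by sequence, also without dKO replicates 1, 4 or both. The count lower was 4 with DESeq2, 0 to 2 with 1 library left out (2 without dKO replicate 1, Rpl29 and Rps7; 1 without dKO replicate 4, Rpl34), 2 without dKO replicates 1 and 4 together (Rpl29 and Rpl34), 1 with copies added by name or by sequence (Rpl21), 1 with copies added by sequence and without dKO replicate 4, and 2 (Rpl21 and Rpl29) without dKO replicate 1 or both. Among 35 single genes (members, Rack1 and Rps4l) under up to 24 settings, 800 values kept their side of the threshold, 17 passed it newly, 10 no longer passed, and 0 called values turned sign. The cause of the differences between tools was not tested. DESeq2 called 2.58% of genes higher and 2.35% lower. No paired analysis was possible because the dKO numbers follow sample order and the labels pair no WT with a dKO sample. The copies search was chosen after seeing the data. Depth limits Rpl24, Rpl36al and Rpl10-ps3, whose levels rest on few reads.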

Other observations

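Of 146 copies outside the member set with enough reads to be tested, 1 rose and 6 fell in dKO (0.685% and 4.11%), beside 1.16% and 1.12% of all tested genes. Besides those described above, they were Rpl3-ps2 (log2 fold change -1.48, SE 0.29, adjusted p = 0.0302), Gm13194, a copy of Rpl36a (-1.67, SE 0.35, adjusted p = 0.0362), and Gm10736, a copy of Rpl41 with no difference in the aligned part (-1.57, SE 0.31, adjusted p = 0.0277). Gm10736 was at 5.51, 6.47, 7.32 and 8.11 CPM in WT replicates 1 to 4 and at 3.85, 1.16, 2.05 and 2.04 CPM in dKO replicates 1 to 4, without overlap. Its parent Rpl41, the smallest protein of the 60S subunit, was at 232, 328, 230 and 194 CPM in WT and at 259, 301, 331 and 295 CPM in dKO. The fitted log2 fold change of Rpl41 was 0.27 (SE 0.15, adjusted p = 0.415). These genes were named after their values were seen.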
